A study of Mus musculus with 4 samples.

Results

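Tcf7, Lef1, Foxo1, Foxp1, Klf2, Klf3, Bach2, Bcl6, Satb1 and Myb are 10 transcription factor genes linked to memory formation and to the resting state of T cells, and were taken by symbol from the 27998 genes of the count tables, where each symbol has 1 entry. The study asked how Bcl3, an IkappaB-family protein that binds the NF-kappaB subunits p50 and p52 in the nucleus, acts in CD8+ T cells that respond to a virus. Marrow of WT mice (CD45.1) and of Bcl3-/- mice (CD45.2), which lack Bcl3 in all cells from the germline on, was mixed and given to irradiated Rag1-/- hosts, which make no T or B cells of their own but may keep other blood cells that outlast the irradiation, all on a C57BL/6 background. The reconstituted chimeras were infected with LCMV Armstrong, a virus that is cleared, and on day 8 spleen CD8+ T cells that bound the tetramer of the viral GP33 peptide were sorted by CD45 allele. Each of 2 chimeras gave 1 WT and 1 Bcl3-/- library, so n = 2 per genotype, and the sources used here give no age for the animals. The CD45 alleles differ between the genotypes as well, so an effect of the congenic background and of Bcl3 cannot be told apart.

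TCF-1 (encoded by Tcf7) and LEF-1 keep T cells in a state from which they can renew themselves, and are lost as effector cells mature. FOXO1 and KLF2 keep resting T cells in circulation by maintaining receptors for IL-7 and for exit into blood, while T cell receptor signals remove FOXO1 from the nucleus and shut off Klf2. FOXP1, KLF3, BACH2, BCL6, SATB1 and MYB act in naive, stem-like or memory cells.

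The libraries were made with the 10x Genomics 3′ kit (version 2), which tags each captured transcript with the barcode of its cell and with a random molecular tag (UMI), and copies made by PCR are counted as 1. Values below are UMI counts or counts-per-million UMIs of the cells summed (CPM). Since only the 3′ end is read, levels of different genes are not ranked against each other. WT 1 held 21193300 UMIs, Bcl3-/- 1 22922219, WT 2 20358780 and Bcl3-/- 2 22672343. Cells were barcodes in which 500 or more genes were found and mitochondrial genes took no more than 10% of UMIs, 4941 in WT 1, 5366 in Bcl3-/- 1, 8092 in WT 2 and 6494 in Bcl3-/- 2. The median cell had 3571 UMIs in WT 1 and 3620.5 in Bcl3-/- 1, but 2019 in WT 2 and 2948 in Bcl3-/- 2, so WT 2 was the shallowest per cell. Any pair of libraries shared between 37 and 63 cell barcodes, beside 36.0 to 71.3 that random draws from the 737280 barcodes of the kit would give. In every sentence with 4 values joined by commas, the order is WT 1, Bcl3-/- 1, WT 2, Bcl3-/- 2.

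Bcl3 itself was read at 33.2, 27.6, 108 and 86.6 CPM over all cells. It was lower in the Bcl3-/- than in the WT library of each chimera, but Bcl3-/- 2 held more Bcl3 RNA than WT 1. The deleted part of the allele is not stated in the methods or the labels, and 3′ tags from outside that part cannot check the labels. Chimera 2 had the higher level in both genotypes, so the libraries also differed by chimera. The second chimera was a separate experiment, so animal, experiment and library preparation cannot be told apart.

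The cells of all libraries were clustered together without the 10 genes among the variable genes, so that none of them could shape a cluster. Of the cells, 23266 fell into 11 clusters of T cells. Although GP33-binding CD8+ T cells had been sorted, 491 cells lay in a B cell-like cluster led by Cd79a and Ms4a1, 770 in 2 myeloid-like clusters led by Lyz2 and by S100a9, and 366 in 2 clusters under 1% of cells that were left out. A memory-gene cluster (1310 cells) held 8 of the markers in its list, among them Il7r, Ccr7, Id3, Slamf6, Dapl1, Nsg2 and Bcl2. Igfbp4, Xcl1, Rapgef6, Ly6e and Cd27 of the same list did not reach the level asked of a marker. The leading genes of the cluster, Dapl1 and Ccr7 among them, mark naive T cells too, so naive cells and memory precursors cannot be told apart in it. A terminal effector-gene cluster (2783 cells) held Cx3cr1, Zeb2, Gzma, Klrg1, S1pr5 and Klre1, while Tbx21 of its list did not reach that level. Cycling-gene clusters held 2247 cells, an interferon-stimulated cluster 817, and the other 16109 T cells lay in 5 clusters named by no marker list. These were led by Ccl5 (4725 cells), by Il7r and Ltb (4401 cells), by Serpinb6b and Adam8 (3368 cells), by Gm26740, Madd and Il7r (2122 cells) and by the mitotic genes Ccnb2 and Cenpa (1493 cells, with Hist1h2bc between them). The class thus holds 2 clusters with Il7r, a memory marker, among their 3 leading genes, and the Gm26740-led one was shallow, with a median of 1715.5 UMIs. The memory-gene cluster made up 6.52%, 4.75%, 5.38% and 4.59% of cells, and the terminal effector-gene cluster 8.26%, 14.6%, 8.55% and 13.8%. Cells with a Cd4 UMI and none of Cd8a or Cd8b1 were rare in the memory-gene cluster, at 0, 1, 8 and 2 cells.

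**Figure D1:**
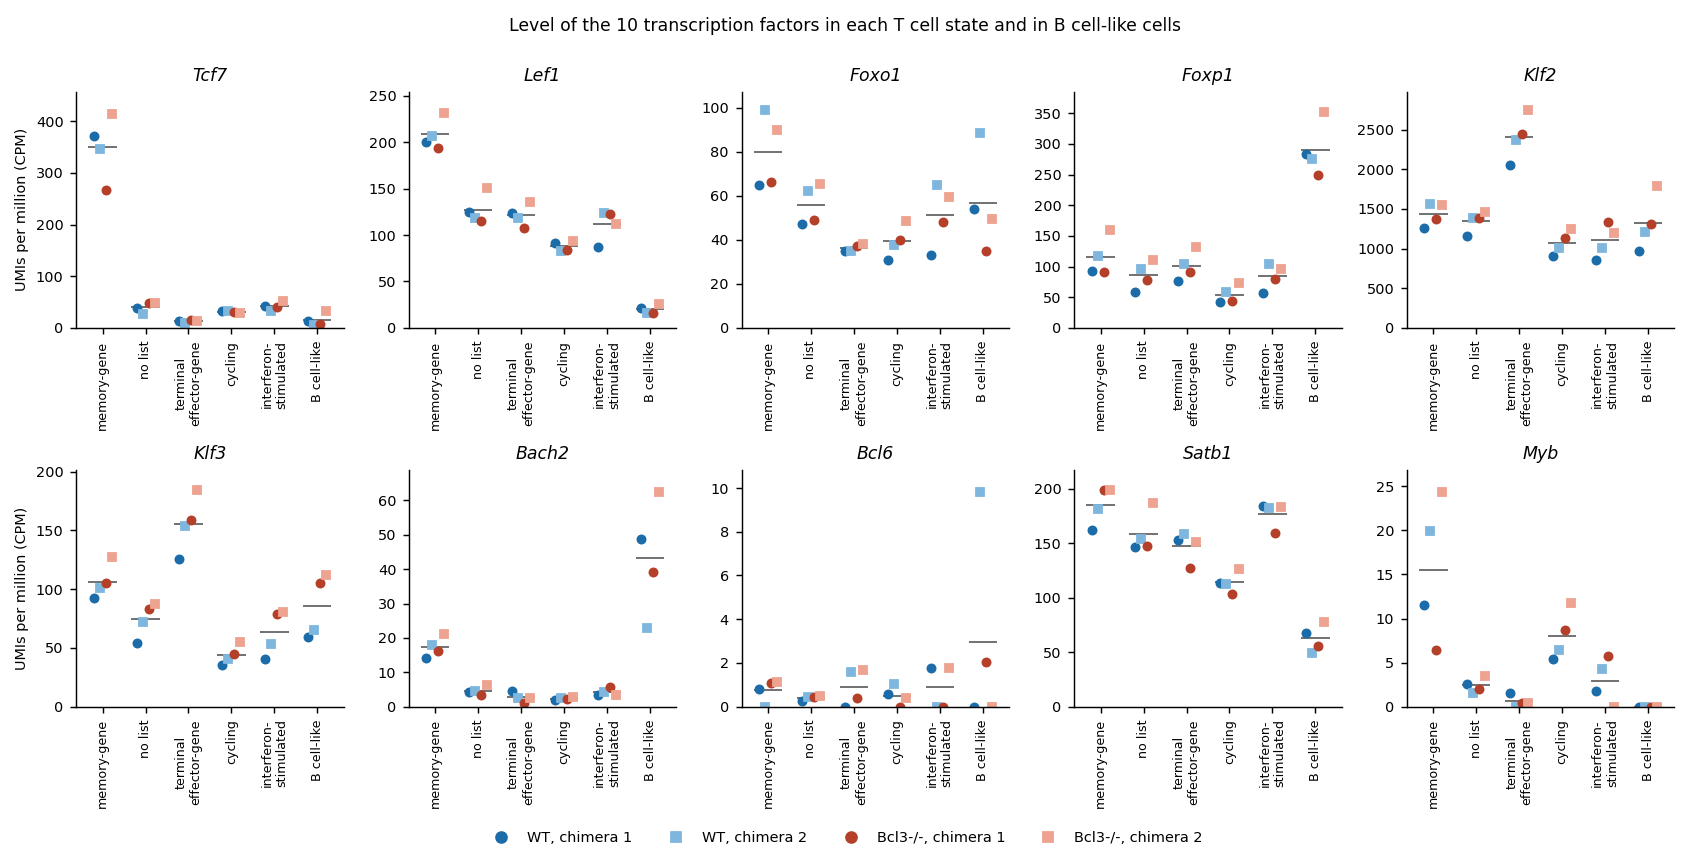
CPM (vertical axes, linear, from 0) of each of the 10 genes in every library, summed over the cells of the memory-gene, no-list, terminal effector-gene, cycling, interferon-stimulated and B cell-like clusters (horizontal axes). Each point is a library and each grey line the mean of the 4; Tcf7 stands between 267 and 415 in the memory-gene cluster and at 52.4 or lower in every other class, while Klf2 and Klf3 peak in the terminal effector-gene cluster.

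Tcf7, the gene of TCF-1, showed a large contrast between states. It lies at chr11:52252371-52283014 on the minus strand (GRCm38), and its last 2 kb overlap the gene model Gm26551, so that UMIs of the overlap may be assigned to either or to neither. In the memory-gene cluster Tcf7 stood at 372, 267, 347 and 415 CPM, and in the terminal effector-gene cluster at 13.9, 16.2, 9.55 and 13.7. All 4 libraries were high in the first and low in the second, with no overlap, and the ratio within a library was 26.4-fold as a geometric mean (16.5 to 36.3 over the libraries). The terminal effector-gene level was close to that in B cell-like cells (13.5, 8.23, 6.54 and 33.8 CPM), so the size of this ratio and its range depend on how much of that level is background. The no-list clusters held 39.3, 48.7, 27.9 and 48.6 CPM, cycling cells 33.7, 30.5, 32 and 29.8. Between 24.2% and 42.3% of all Tcf7 UMIs of T cells came from the memory-gene cluster. Clusters are groups of cells made from the same counts, so contrasts between states are descriptions and carry no test.

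The promoter window of Tcf7 that carries a match to the forkhead motif is shown, because FOXO1 is itself one of the 10 factors; in this and the other windows capitals mark motif matches, and a match is a string of letters, not a binding site.
Tcf7, chr11:52282546-52282845 (GRCm38.p6, minus strand, RefSeq): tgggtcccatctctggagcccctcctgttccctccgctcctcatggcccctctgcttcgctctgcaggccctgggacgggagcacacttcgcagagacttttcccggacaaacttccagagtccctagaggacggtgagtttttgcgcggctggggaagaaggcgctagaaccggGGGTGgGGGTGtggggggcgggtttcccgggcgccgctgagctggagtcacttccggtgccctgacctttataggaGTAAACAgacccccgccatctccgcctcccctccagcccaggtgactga
Promoters, 250 bases before to 50 after each RefSeq start, were read for all 10 genes, which have 21 windows. The motifs searched on both strands were TCF/LEF (CTTTGA), forkhead (TGTTTAC), the KLF box (CACCC), MYB (CAACNG), BACH2/AP-1 (TGACTCA), BCL6 (TTCCTNGAA) and kappaB (GGG and TTTCC with 2 bases of any kind between), and no match overlapped another. Of the 32851 promoter windows in the table, 16% held the TCF/LEF letters, 3.65% forkhead, 57.5% the KLF box, 35.0% MYB, 5.2% BACH2/AP-1, 1.59% BCL6 and 1.63% kappaB. Among the 21 windows, the KLF box was in 16 and TCF/LEF in 4 (of Lef1, Foxp1, Bach2 and Bcl6). MYB was in 4, forkhead in 2 (of Tcf7 and Myb) and BCL6 in 1, of Bcl6 itself, and BACH2/AP-1 and kappaB were in 0. Windows of a gene can overlap, as the first 2 of Lef1 and the last 2 of Satb1 do, so a match can be counted in both, and the windows are not independent. By gene, the KLF box was in windows of 8 of the 10.

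Per cell, Tcf7 was read sparsely. With each cell thinned to 1000 UMIs, a Tcf7 UMI was found in 29.8%, 22.0%, 26.6% and 33% of memory-gene cells, and in 1.23%, 1.27%, 0.589% and 1.45% of terminal effector-gene cells. The exact 95% intervals of the first were 24.9 to 35.1, 17.0 to 27.5, 22.4 to 31.1 and 27.7 to 38.7. Without thinning, 67.4%, 49.8%, 46.4% and 59.1% of memory-gene cells had a UMI, at median depths of 3323.5, 3433, 1972 and 2854.5 UMIs. B cell-like cells, which should lack Tcf7, had one in 0.935%, 1.47%, 0% and 1.56% of thinned cells (the 0 of 112 cells in WT 2 allows up to 2.68%), at unthinned median depths of 2329, 2908.5, 2025.5 and 2649.5 UMIs; 86.6% of them carried a UMI of a T cell marker. The share in terminal effector-gene cells was of that size, so it is not read as expression, and the part of free RNA in it was not tested. Within the memory-gene cluster the counts spread from none to many: 32.6%, 50.2%, 53.6% and 40.9% of unthinned cells had 0 Tcf7 UMIs, 15.8%, 12.5%, 6.44% and 16.8% had 3 or more, and the highest cell of each library had 12, 8, 6 and 7. Single cells that carried a marker of the state followed the clusters. Tcf7 was found in 28.6% to 37.0% of thinned T cells with a Ccr7 UMI against 3.52% to 5.43% of those without, and in 2.11% to 3.82% of cells with Gzmb against 7.15% to 9.56% without (ranges over the 4 libraries). Ccr7 is the receptor that guides T cells into lymph nodes, and Gzmb encodes the protease granzyme B. Zeb2, a repressor active in terminal effectors, was seldom met with Tcf7, as 1.17% to 2.50% of Zeb2-positive cells had a Tcf7 UMI against 3.93% to 5.99% of the others.

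Lef1, which encodes the partner of TCF-1 at the same DNA motif (chr3:131110471-131224356, plus strand), was also highest in the memory-gene cluster, at 200.2, 194, 207 and 231 CPM. The terminal effector-gene cluster held 124, 108, 119 and 136 CPM and the no-list clusters 125, 115, 119 and 150.4, so that these classes overlapped. The memory-gene level was 0.72 ± 0.08 (SD, n = 4 libraries) above the no-list level on the log2 scale, against 3.11 ± 0.49 for Tcf7. In B cell-like cells Lef1 was at 21.7, 16.5, 16.3 and 26.0 CPM, below every T cell class. The share of thinned cells with a Lef1 UMI was 20.8%, 19.2%, 16.2% and 23.2% in the memory-gene cluster, 11.3%, 10.8%, 11.5% and 11.5% in the terminal effector-gene cluster, and 3.74%, 0.735%, 0.893% and 2.34% in B cell-like cells.

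Bach2, a repressor that holds back effector genes at AP-1 sites (chr4:32238804-32586108, plus strand), was scarce and also highest in the memory-gene cluster among T cells. The memory-gene cluster held 17, 15, 17 and 19 Bach2 UMIs, which is 14.0, 16.1, 17.9 and 21 CPM, and the no-list clusters 4.28, 3.34, 4.60 and 6.25 CPM. The terminal effector-gene cluster held 4.63, 1.16, 2.39 and 2.49 CPM, above the no-list level in WT 1 and below it in the other 3 libraries. The memory-gene and no-list values did not overlap, and the log2 ratio was 1.92 ± 0.25 (SD, n = 4). In B cell-like cells, where Bach2 is well known to act, it reached 48.7, 39.1, 22.9 and 62.5 CPM, above every T cell class. Its RefSeq promoter window is shown for its TCF/LEF match, since Bach2 was the member that correlated best with Tcf7 across clusters; it lies inside the longer GENCODE gene.
Bach2, chr4:32417185-32417484 (GRCm38.p6, plus strand, RefSeq): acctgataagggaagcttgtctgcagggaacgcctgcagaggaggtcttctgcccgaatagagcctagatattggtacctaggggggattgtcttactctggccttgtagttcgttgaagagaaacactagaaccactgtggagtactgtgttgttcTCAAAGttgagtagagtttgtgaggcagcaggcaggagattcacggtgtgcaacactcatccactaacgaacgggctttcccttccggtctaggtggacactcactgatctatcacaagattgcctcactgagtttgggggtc
The window had a GC content of 50.3%, beside a median of 52.7% over all promoters and 64.3% in the Tcf7 window.

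Foxo1, which encodes a forkhead factor that is shut out of the nucleus by PI3K and AKT signals (chr3:52268336-52353221, plus strand), stood at 65.1, 66.5, 98.7 and 89.6 CPM in the memory-gene cluster and 34.7, 37.4, 35.0 and 38.2 in the terminal effector-gene cluster. The memory-gene value was the higher in every library, by 1.12 ± 0.31 on the log2 scale. Chimera 2 was above chimera 1 in the memory-gene cluster in both genotypes, while the terminal effector-gene values were tight. Foxp1, a forkhead repressor that keeps naive T cells quiescent (chr6:98925338-99522721, minus strand), showed a smaller contrast, with 93.1, 91.1, 117 and 159 CPM in the memory-gene cluster, 77.2, 92.0, 104 and 132 in the terminal effector-gene cluster and 58.7, 78.7, 96.6 and 111 in the no-list clusters. In B cell-like cells it reached 284, 249, 275 and 351 CPM, and 10.3% to 14.2% of all Foxp1 UMIs came from cells outside the T cell clusters.

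Klf2 and Klf3 encode zinc-finger factors of 1 family that bind CACCC-like sequences, and both were highest where Tcf7 was lowest. KLF2 switches on S1pr1, the receptor for exit into blood, and KLF3 is best known as a repressor recruited to the same sites. Klf2 (chr8:72319033-72321656, plus strand) stood at 2052, 2446, 2368 and 2743 CPM in the terminal effector-gene cluster, 1257, 1374, 1563 and 1556 in the memory-gene cluster and 1161, 1390.5, 1383 and 1465 in the no-list clusters. The terminal effector-gene values lay above all others without overlap, by 0.83 ± 0.05 (SD, n = 4) over the no-list clusters on the log2 scale. Cycling cells held 906, 1138, 1011 and 1252 CPM, close to the interferon-stimulated cluster at 862, 1341, 1008 and 1202. Klf3 (chr5:64803388-64832901, plus strand) held 126, 159, 154 and 184 CPM in the terminal effector-gene cluster, 92.3, 105, 101 and 127 in the memory-gene cluster, 54.4, 82.7, 72.0 and 87.6 in the no-list clusters and 35.7, 45.0, 40.4 and 55.0 in cycling cells. Its terminal effector-gene level was 2.11-fold that of the no-list clusters, a log2 ratio of 1.08 ± 0.11. In each library the memory-gene level of Klf3 lay between these, 0.53 ± 0.17 above the no-list clusters. With 30 principal components this fell to 0.08 ± 0.39, with the lowest library at -0.48.

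The promoters of the pair are shown because they follow each other across clusters and differ in how many KLF boxes they hold.
Klf2, chr8:72318812-72319111 (GRCm38.p6, plus strand, RefSeq): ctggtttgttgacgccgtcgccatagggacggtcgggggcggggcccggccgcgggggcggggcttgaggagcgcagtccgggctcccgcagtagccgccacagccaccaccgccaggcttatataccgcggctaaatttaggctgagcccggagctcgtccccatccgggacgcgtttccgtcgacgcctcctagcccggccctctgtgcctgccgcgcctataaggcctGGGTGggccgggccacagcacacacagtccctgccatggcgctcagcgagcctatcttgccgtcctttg
Klf3, chr5:64803271-64803570 (GRCm38.p6, plus strand, RefSeq): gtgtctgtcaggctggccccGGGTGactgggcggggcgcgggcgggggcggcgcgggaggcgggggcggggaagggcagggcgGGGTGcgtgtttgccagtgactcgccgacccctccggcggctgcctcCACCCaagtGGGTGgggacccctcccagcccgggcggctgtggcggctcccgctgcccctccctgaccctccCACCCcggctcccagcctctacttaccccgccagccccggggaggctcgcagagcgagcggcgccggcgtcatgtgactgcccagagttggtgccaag
The Klf2 window held 1 motif match and the Klf3 window 5, as the capitals show, and their GC contents were 69.3% and 76.7%.

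In single T cells the pair went with terminal effector genes. A Klf2 UMI was found in 79.0% to 87.4% of thinned cells with Zeb2 against 63.6% to 72.8% of those without, and in 76.7% to 85.5% of cells with Cx3cr1, the fractalkine receptor, against 63.6% to 73.0%. For Klf3 the shares were 10.8% to 14.6% with Zeb2 and 5.90% to 8.82% without. Klf2 was also found widely outside the T cell clusters. A Klf2 UMI was in 56.1%, 62.5%, 60.7% and 69.5% of thinned B cell-like cells. Barcodes under 100 UMIs, which hold free RNA, gave 985, 1402, 1196 and 1545 CPM. These CPM describe the make-up of free RNA and not its amount in a cell. Shares of Klf2 in the memory-gene cluster (67.7%, 71.4%, 71.7% and 75.4%) lay above those of B cell-like cells in each library. Those in the terminal effector-gene cluster (84.0%, 90.7%, 87.8% and 91.1%) were higher again. B cell-like cells also express Klf2, so their value is an upper limit for free RNA, and the part of free RNA in these shares was not tested.

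Satb1, which encodes an organiser of chromatin loops in T cells (chr17:51736187-51833290, minus strand), changed little between states. It stood at 162, 199, 182 and 199 CPM in the memory-gene cluster, 153, 127, 158 and 151 in the terminal effector-gene cluster and 184, 159, 183 and 183 in interferon-stimulated cells. The memory-gene value was 0.23 ± 0.15 above the no-list clusters on the log2 scale. Cycling cells were lowest of the T cell classes, at 114, 104, 112 and 127 CPM, without overlap with the memory-gene cluster.

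Myb, a factor for self-renewal and for division of progenitors (chr10:21124935-21160984, minus strand), was higher in the pooled cycling clusters than in the no-list clusters in all 4 libraries, which held for none of the other 9. The cycling clusters held 5.38, 8.67, 6.40 and 11.8 CPM and the no-list clusters 2.57, 1.97, 1.56 and 3.47, a log2 ratio of 1.75 ± 0.48 (SD, n = 4). The clusters of the class differed: the Lig1- and Mcm5-led one held 6.92, 14.8, 9.26 and 17.5 CPM and the Hist1h2ap-led one 5.99, 5.71, 6.58 and 12.96, but the mitotic, Cdc20-led one held 1, 2, 0 and 1 Myb UMIs, or at most 3.33 CPM, a level that overlapped with the no-list clusters. In the memory-gene cluster 14, 6, 19 and 22 UMIs were counted, or 11.5, 6.43, 19.95 and 24.3 CPM, and in the terminal effector-gene cluster at most 1.54 CPM. B cell-like cells held 0 Myb UMIs in every library, which allows up to 8.12, 6.17, 9.81 and 7.81 CPM, but the myeloid-like clusters 20.1, 17.9, 15.4 and 40.2 CPM. Bcl6, the repressor that opposes Blimp-1 (chr16:23965052-23988852, minus strand), was close to undetected: 7, 8, 10 and 13 UMIs in all T cells of a library, and 1, 1, 0 and 1 in the memory-gene cluster. No contrast between states could be read for it at this depth.

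**Figure D2:**
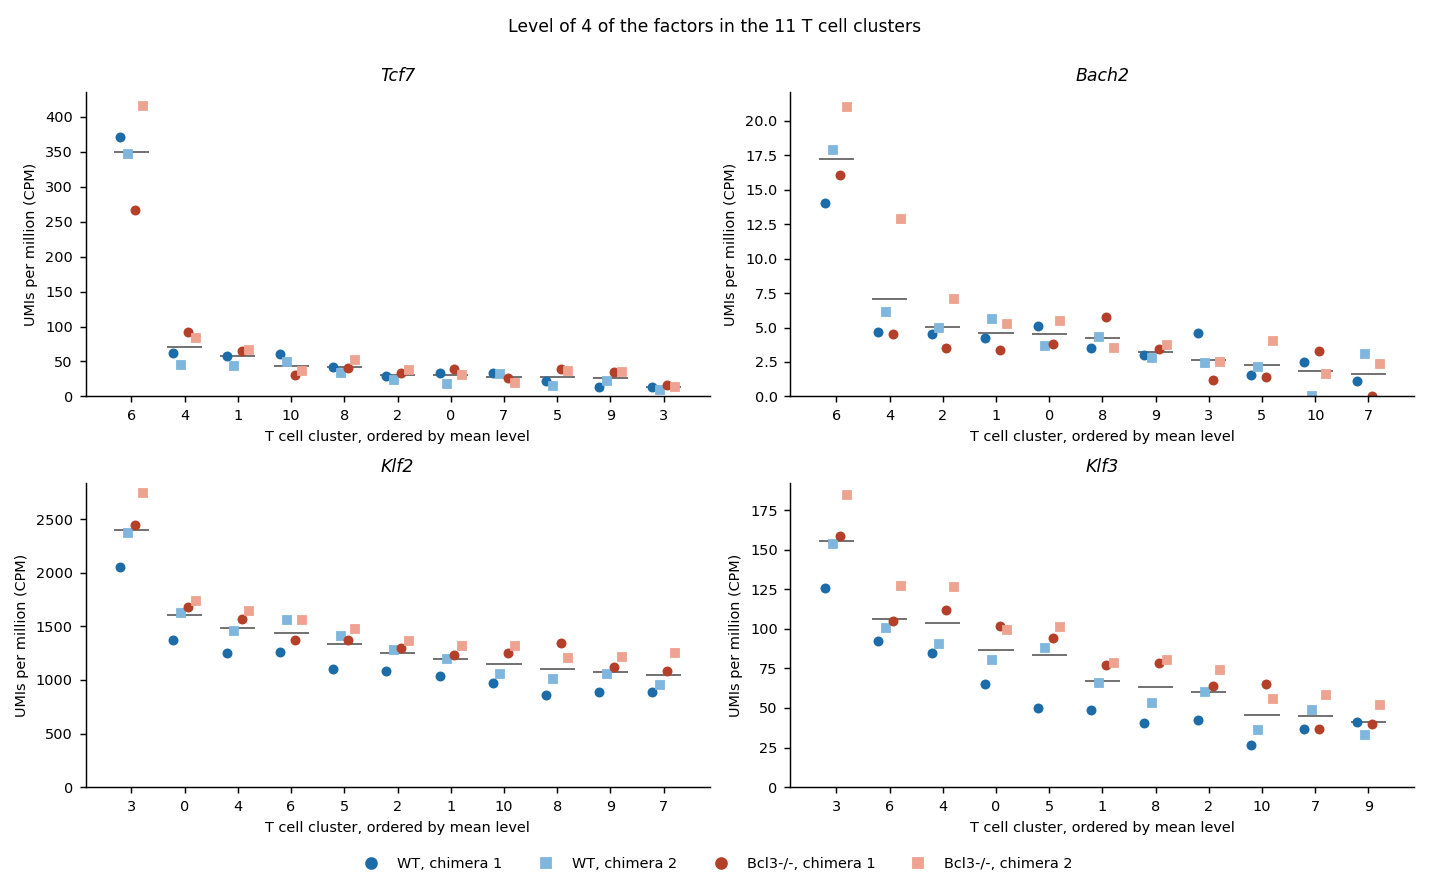
CPM (vertical axes) of Tcf7, Bach2, Klf2 and Klf3 in the 11 T cell clusters (horizontal axes, clusters ordered by the mean of the 4 libraries within each panel); points are libraries. Tcf7 and Bach2 have the memory-gene cluster first with no overlap with the next cluster, and Klf2 and Klf3 the terminal effector-gene cluster first.

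Ordered over the 11 T cell clusters, Tcf7 ran from the memory-gene cluster (266.9 to 415.0 CPM) to the shallow Gm26740-led cluster (44.8 to 92.7) and, last, the terminal effector-gene cluster (9.55 to 16.2), which overlapped with the cycling cluster next to it (12.98 to 35.4). For Tcf7, Lef1 and Bach2 the memory-gene cluster did not overlap with the next one. For Klf2 the terminal effector-gene cluster (2052 to 2743 CPM) did not overlap with the next (1371 to 1737, the cluster led by Ccl5 and Klrk1), whereas for Klf3 it did, since the memory-gene cluster was the next. Foxo1, Foxp1, Satb1 and Myb had no cluster that stood apart at the top. For Foxp1 and Satb1 the first was the shallow Gm26740-led cluster, which also has Malat1 among its leading genes, at means of 116.2 and 199.9 CPM against 115.0 and 185.6 in the memory-gene cluster, with overlapping ranges. Over the 44 combinations of library and cluster, which share library and depth, Klf2 correlated with Klf3 at a Pearson r of 0.900, Tcf7 with Bach2 at 0.812, Foxp1 with Satb1 at 0.774 and Foxo1 with Bach2 at 0.715, as descriptions. Of the other genes with a mean of at least 30 CPM (3889 genes compared), those most like Tcf7 were Slamf6 (0.878), a receptor of stem-like cells, Actn1 (0.836) and Rpl12 (0.792). Actn1 (0.828) was also the closest to Bach2, followed by Srpk1 (0.795) and Ehd3 (0.761). Klf2 was most like Jak1 (0.864), a kinase below cytokine receptors, Acss2 (0.848) and Baiap3 (0.819), and Klf3 most like Atp1b3 (0.829), Arhgef3 (0.80) and Bnip3l (0.795). Foxp1 went with Btg2 (0.895), Rchy1 (0.854) and Btg1 (0.831), and Btg1 and Btg2 are antiproliferative genes of resting cells. Lef1 was most like Nudt16 (0.822), Tsc22d3 (0.752) and Pdrg1 (0.750), Foxo1 like Ifnar1 (0.807), Faah (0.804) and Ikbkb (0.789). Satb1 was most like Ablim1 (0.850), Arhgap15 (0.848) and Peli1 (0.843), and Myb like Abcf2 (0.771), Rexo2 (0.753) and Gart (0.703). The nearest gene to Bcl6 reached 0.396 (Clk4), then Rbm43 (0.393) and Tango2 (0.391), which at so few UMIs says nothing of Bcl6.

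Between the genotypes, Klf3 was the member with the clearest difference. Over all T cells it stood at 57.9 and 73.3 CPM in WT (65.6 ± 10.9, SD, n = 2) and at 89.1 and 96.9 in Bcl3-/- (93.0 ± 5.56, SD, n = 2). Both Bcl3-/- libraries were above both WT libraries, and so they were in each of the 5 T cell classes taken alone. The classes come from the same libraries, so they are not independent of each other. With n = 2 per genotype such an order arises readily without a difference, and the share of all genes with it was not counted. The same limit holds wherever genotypes are said below not to overlap. The edgeR quasi-likelihood fit gave a log2 fold change of 0.50 (SE 0.11), with an adjusted p of 0.171 by genotype alone and of 0.000518 with the chimera as a block, both with Benjamini-Hochberg adjustment. Within the classes, Bcl3-/- was above WT by 0.19 and 0.34 on the log2 scale in the memory-gene cluster (chimeras 1 and 2). The no-list clusters gave 0.61 and 0.28, the terminal effector-gene cluster 0.33 and 0.26. Cycling cells gave 0.33 and 0.44, interferon-stimulated cells 0.97 and 0.59. The value over all T cells also depends on the sizes of the clusters, and the part of these sizes in it was not tested. The terminal effector-gene cluster, where Klf3 is highest, was larger in the Bcl3-/- libraries.

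Klf2 stood at 1172 and 1385 CPM in WT T cells (1279 ± 151, SD, n = 2) and at 1497 and 1592 in Bcl3-/- T cells (1544 ± 67.3). The groups did not overlap, the log2 fold change was 0.27 (SE 0.12 by genotype alone, 0.07 with the block), and the adjusted p was 0.364 by genotype alone and 0.0185 with the block in edgeR. Foxp1 was at 59.2 and 92.0 CPM in WT and at 76.8 and 111 in Bcl3-/-, which overlap, since chimera 2 was higher in both genotypes. Within chimera 1 the Bcl3-/- library was 0.38 above the WT library on the log2 scale and within chimera 2 it was 0.26 above, and edgeR gave 0.30 with an adjusted p of 0.574 by genotype alone and 0.0159 with the block.

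**Figure D3:**
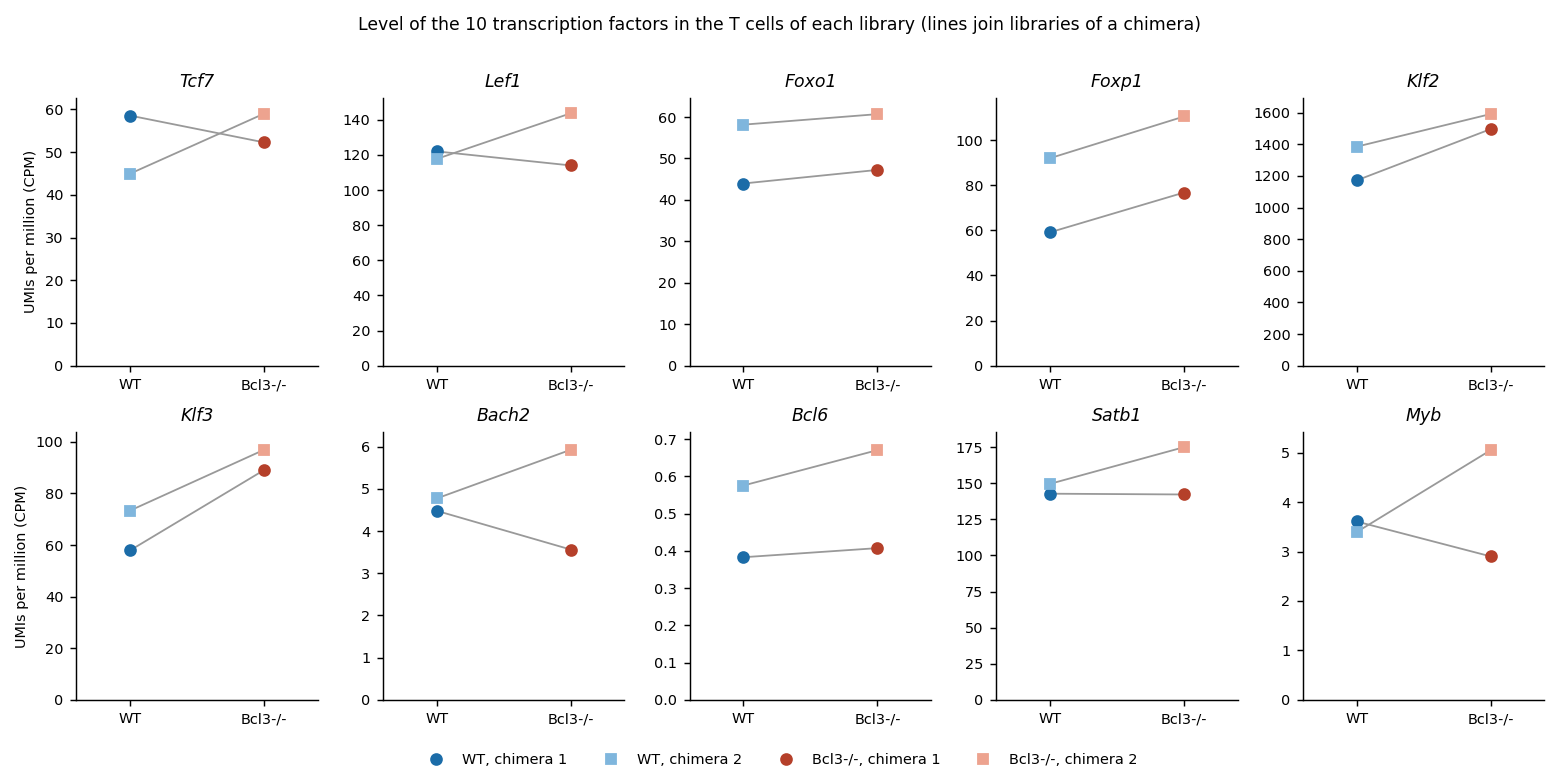
CPM over all T cells (vertical axes, from 0) of the 10 genes in the WT and Bcl3-/- libraries (horizontal axes), with a line joining the 2 libraries of a chimera. For Klf3 (57.9 and 73.3 against 89.1 and 96.9) and Klf2 both lines rise and the groups do not overlap; for Foxp1 both rise and the groups overlap; for Tcf7, Lef1, Bach2, Satb1 and Myb the lines go opposite ways.

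By genotype alone, 0 of the 10 genes passed in T cells at an adjusted p of 0.05 in edgeR, beside 25 of 11049 genes tested (0.226%); 1563 genes had an unadjusted p under 0.05, Klf3 among them with 0.0035, and DESeq2 called 0 of the 10 as well. With the chimera as a block, which the design allows because both libraries of a number come from the same animal, 3 of the 10 were higher in Bcl3-/- (Foxp1, Klf2 and Klf3) and 0 lower, beside 10.8% of all genes called in either direction. Without the 4 clusters of cell-cycle genes the block fit called Foxp1 and Klf3 and no longer Klf2. A lost call is not a lost difference. In the no-list clusters Klf2 was 0.26 and 0.08 higher in Bcl3-/- on the log2 scale (chimeras 1 and 2). It was 0.25 and 0.21 higher in the terminal effector-gene cluster, while the memory-gene cluster gave 0.13 and -0.01. Over all cells 0 of the 10 passed by genotype alone (0.363% of 11566 genes did), and the same 3 with the block (9.65% of genes). The median log2 fold change of the 10 in T cells was 0.13, beside 0.01 for all genes tested.

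The other 7 genes did not pass either fit in T cells. Tcf7 was at 58.6 and 44.9 CPM in WT (51.7 ± 9.64, SD, n = 2) and 52.3 and 59.0 in Bcl3-/- (55.6 ± 4.75), lower in the Bcl3-/- library of chimera 1 and higher in that of chimera 2, and the log2 fold change was 0.09 (SE 0.14). Lef1 (122 and 118 against 114 and 144 CPM, log2 0.09, SE 0.11) and Satb1 (143 and 150 against 142 and 175 CPM, log2 0.11, SE 0.10) also went opposite ways in the 2 chimeras. Foxo1 was 44.0 and 58.2 CPM in WT and 47.2 and 60.7 in Bcl3-/-, with a log2 fold change of 0.07 (SE 0.14). For Bach2, at 4.48 and 4.77 against 3.56 and 5.93 CPM, and Myb, at 3.61 and 3.39 against 2.90 and 5.05 CPM, the standard errors were 0.26 and 0.29 on the log2 scale. Bcl6, with 0.16 and an SE of 0.48, could not be resolved. A difference of the size measured for Klf3 lay within 2 SE of the values of Bach2, Myb and Bcl6.

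**Figure D4:**
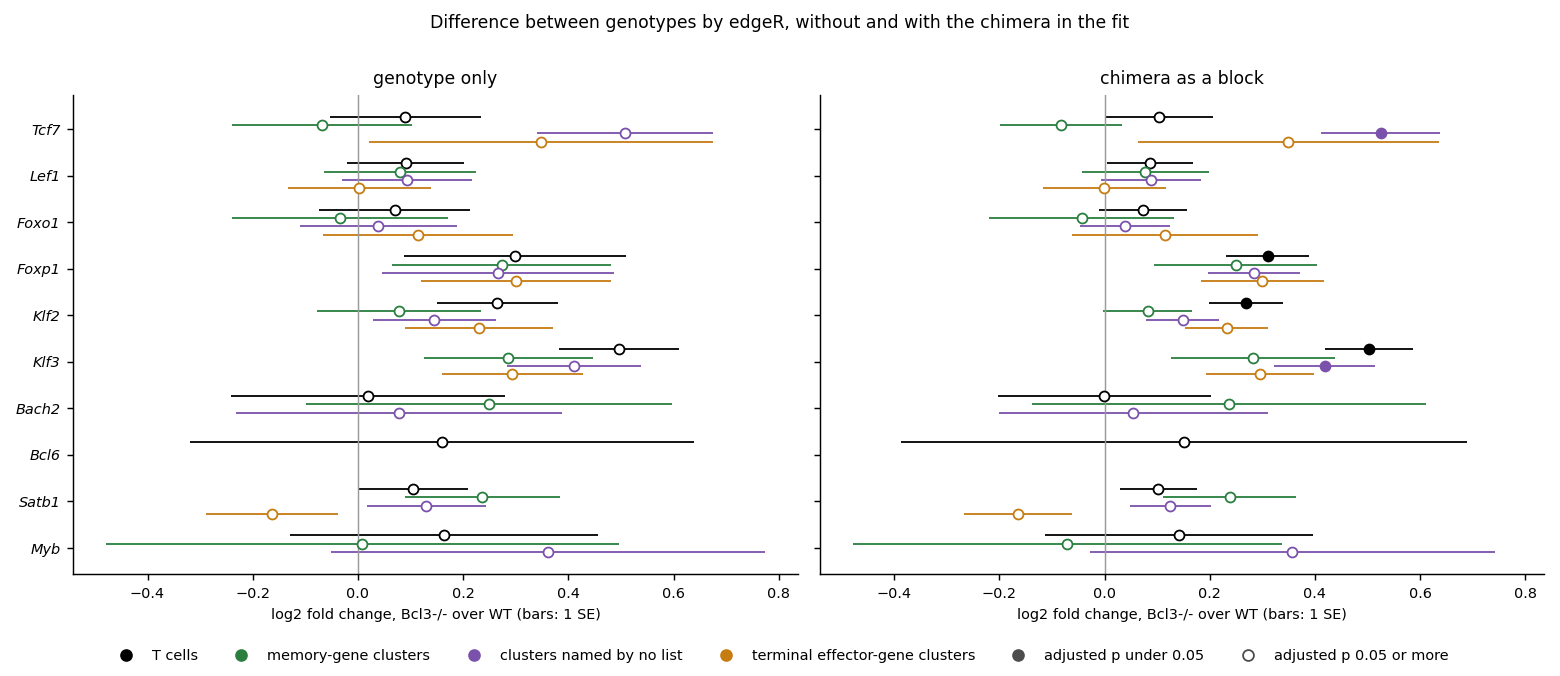
Log2 fold changes of Bcl3-/- over WT (horizontal axis, bars 1 SE) from edgeR for the 10 genes in all T cells and in the memory-gene, no-list and terminal effector-gene clusters, by genotype alone and with the chimera as a block. Filled points passed an adjusted p of 0.05: Foxp1, Klf2 and Klf3 in T cells and Tcf7 and Klf3 in the no-list clusters, all with the block.

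Among the classes of clusters tested alone, the calls lay in the no-list clusters. There Tcf7 stood at 39.3 and 27.9 CPM in WT and 48.7 and 48.6 in Bcl3-/-, without overlap. The 5 clusters of the class differ in Tcf7 and in size between libraries. The Il7r- and Ltb-led cluster, where Tcf7 was higher than in the Ccl5-led one in every library, held 737 of 3167 no-list cells in WT 1, 1016 of 3370 in Bcl3-/- 1, 1310 of 5422 in WT 2 and 1338 of 4150 in Bcl3-/- 2. Within it Tcf7 was at 57.6, 64.8, 42.8 and 66.6 CPM, and within the Ccl5-led cluster at 33.5, 39.5, 17.5 and 31.2. In each of the 5 clusters the Bcl3-/- library was above the WT library of the same chimera, and the genotypes overlapped only in the Ccl5-led one. The part of the mix of clusters in the difference was not tested. Over the class, in edgeR, its log2 fold change was 0.51 (SE 0.17, adjusted p 0.352) by genotype alone and 0.52 (SE 0.11, adjusted p 0.0226) with the block. Klf3 (54.4 and 72.0 against 82.7 and 87.6 CPM) gave 0.41 with an adjusted p of 0.326 by genotype alone and 0.42 (SE 0.10) with 0.0297 with the block in edgeR. By genotype alone 0 of 9 members tested passed there (0.257% of 10505 genes did), and with the block 2 of 9 (4.88% of genes). In the memory-gene cluster 0 of 9 members tested passed by either fit, beside 0.475% of 6942 genes by genotype alone and 2.62% with the block. Tcf7 was 372 and 347 CPM in WT and 267 and 415 in Bcl3-/- there, with the chimeras 0.48 down and 0.26 up on the log2 scale, and edgeR gave -0.07 (SE 0.17). In the terminal effector-gene cluster 0 of 7 members tested passed by either fit (0.289% of 7965 genes by genotype alone, 1.24% with the block), and edgeR gave 0.29 (SE 0.13) for Klf3 and 0.23 (SE 0.14) for Klf2. The members not tested in a state had too few UMIs for the filter: the 3 missing from the terminal effector-gene cluster are Bach2, Bcl6 and Myb.

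Whether the genotype difference itself differed between the memory-gene and the no-list clusters was tested as an interaction, with the library as a block. It passed for 1 of 9 members tested, Tcf7, beside 0.0675% of 10373 genes: its difference was 0.59 lower on the log2 scale in the memory-gene cluster (-0.59, SE 0.13, adjusted p 0.0445 in edgeR). Within each chimera the Bcl3-/- to WT ratio of Tcf7 was lower in the memory-gene cluster, at -0.48 against 0.31 in chimera 1 and 0.26 against 0.80 in chimera 2 on the log2 scale. The call was lost without Bcl3-/- 1 (-0.32) and without WT 2 (-0.41), and on clustering at resolution 0.4 (-0.68, adjusted p 0.419 in edgeR) and at 1.2 (-0.45, adjusted p 0.933). A fit without 1 library leaves 1 library in that genotype, which is assumed to vary like the other genotype.

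Reads of other cells and of free RNA moved in part with these values. In barcodes under 100 UMIs, Klf3 was at 40.9 and 54.4 CPM in WT and 80.1 and 76.2 in Bcl3-/-, and Klf2 at 985 and 1196 against 1402 and 1545. In B cell-like cells Klf3 was at 59.6 and 65.4 CPM in WT and 105 and 112 in Bcl3-/-, both Bcl3-/- libraries again above both WT libraries, and in the myeloid-like clusters it was at 50.8 and 69.3 against 77.9 and 75.5. Klf2 did likewise, with 972 and 1213 CPM in WT and 1315 and 1785 in Bcl3-/- B cell-like cells, and 656 and 741 against 948 and 839 in myeloid-like cells. Foxp1 in barcodes under 100 UMIs was at 52.8 and 62.2 CPM in WT and at 56.3 and 91.7 in Bcl3-/-, higher in Bcl3-/- within each chimera. In B cell-like cells, at 284 and 275 CPM in WT and 249 and 351 in Bcl3-/-, and in myeloid-like cells, at 42.2 and 68.3 against 82.8 and 65.6, the chimeras went opposite ways for Foxp1. Cells of these clusters passed the same sort by CD45 allele, and the part of free RNA in these values was not tested. Tcf7 in the same barcodes under 100 UMIs was at 40.9 and 41.95 CPM in WT and 37.6 and 45.3 in Bcl3-/-, near the level of the no-list clusters, and the part of free RNA in the Tcf7 call there was not tested. Among T cells, summed B cell markers (Cd79b the most abundant) were 31.9, 39.7, 34.9 and 36.4 CPM, plasma cell markers (Jchain) 190, 178, 171 and 169, erythroid markers 9.29, 3.00, 36.2 and 34.7, and CD4 T cell markers (Ctla4) 47.0, 32.5, 49.5 and 40.6. The CD4 T cell sum was lower over all cells, at 43.9, 31.0, 46.2 and 37.9 CPM. Ctla4 is also among the FOXO1 and KLF2 targets below, so this sum is not a measure of other cells alone. Myeloid markers summed to 919, 1052, 810 and 824 CPM, beside T cell markers (Cd8b1 the most abundant) at 6035, 6389, 5783 and 6484. These lists had 8 of 9 B cell, 6 of 6 plasma cell, 13 of 13 myeloid (Lyz2 or S100a8 the most abundant), 7 of 7 erythroid, 7 of 7 CD4 T cell and 5 of 5 T cell markers in the tables. In T cells only erythroid markers were at 0 UMIs, 1 in WT 1 and 2 in Bcl3-/- 1, and the part of such RNA in the results was not tested.

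Genes around the 10 factors were taken from 8 lists, described by counts only and chosen with earlier results of these data known. Among quiescence genes 17 of 18 were tested in T cells, with 0 called by genotype alone and 7 higher and 0 lower with the block, and a median log2 fold change of 0.20 beside 0.01 for all genes. Zfp36l2, which promotes decay of mRNAs of the cell cycle, was at 57.1, 82.3, 51.5 and 161 CPM (log2 1.08 with the block), and its relative Zfp36 at 15.1, 21.2, 10.4 and 27.6 CPM (log2 0.93). Rassf2, a Ras effector, was at 31.1, 42.4, 28.0 and 44.0 CPM, higher in both Bcl3-/- libraries, and edgeR with the block gave adjusted p values of 6.27e-05 for Zfp36l2, 0.000446 for Zfp36 and 0.000667 for Rassf2. Fam65b (0.44), Tob1 (0.46), Txnip (0.30) and Tob2 (0.42) rose as well with the block. Of TCF/LEF cofactors 15 of 19 were tested, and 4 were higher and 0 lower with the block: Bcl9l (log2 0.59, adjusted p 0.00375 in edgeR), Tle3 (0.42, 0.0262), Ctnnbip1 (0.32, 0.0395) and Aes (0.22, 0.0458). Tle3 encodes a corepressor of the Groucho family, to which Aes also belongs. Bcl9l assists beta-catenin and Ctnnbip1 blocks it, so the 4 do not act in 1 direction on the pathway.

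Of genes that FOXO1 or KLF2 control in T cells 16 of 17 were tested, and Cd69, which encodes the protein that binds S1PR1 and holds T cells in tissue, was called lower already by genotype alone. Cd69 stood at 42.5, 23.1, 44.2 and 24.3 CPM, without overlap, and edgeR gave -0.88 (SE 0.09, adjusted p 0.0243). S1pr1 stood at 107, 133, 122 and 149.8 CPM and was called higher with the block (0.30, adjusted p 0.0101 in edgeR). With the block Cd69, Ccr7 (-0.79), Itgb7 (-0.35) and Ctla4 (-0.46) were lower, and the median of the list was -0.12. Effector factors had Zeb2 called by genotype alone, at 40.4, 70.6, 44.9 and 74.0 CPM (0.75, SE 0.09, adjusted p 0.0437 in edgeR). With the block, Id2 (0.91), Zeb2 (0.76), Bhlhe40 (0.95), Nfatc1 (0.39) and Tbx21 (0.25) were higher and Irf8 (-0.54), Bcl3 (-0.40) and Hif1a (-0.27) lower, of 14 tested, with a median of 0.08 by genotype alone. Among 15 other memory-associated factors the block fit called Ets1 (0.47), Eomes (0.51) and Ikzf1 (0.26) higher and Id3 (-0.84), Tox (-0.83) and Ikzf2 (-0.79) lower, with a median of 0.11 by genotype alone. Of 25 relatives of the members 17 were tested and Mybl2, a MYB relative of dividing cells, was lower (-0.72, adjusted p 0.00437 in edgeR with the block), with a median of 0.03. Klf6 stood at 103, 94.3, 115 and 99.7 CPM and Foxk1 at 8.47, 10.2, 7.42 and 10.8, and neither passed. Of 14 partners of BACH2, BCL6 and SATB1 13 were tested and Hdac7 was higher (0.35, adjusted p 0.0125), and of 8 partners of MYB and FOXP1 Ep300 was higher (0.40, adjusted p 0.0326), both with the block in edgeR. Hdac5 (0.25), Nfe2l1 (0.27), Gatad2a (0.21) and Mta1 (0.33) did not pass, and the medians of these lists were 0.07 and 0.18. With the block, calls in the lists are to be read beside the 10.8% of all genes that it called.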

How the data were processed

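Single-cell 3′ RNA-seq of GP33-binding spleen CD8+ T cells was analysed in 4 libraries, 2 per genotype. The deposited tables hold unnormalized UMI counts, as the authors' pipeline wrote them, for all barcodes of the kit. The submitters' processing notes name bcl2fastq 2.17, Cell Ranger 2.2.0 and mm10. The annotation release is not given in the sources used here, and coordinates are from GENCODE vM21 (GRCm38).

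The members and all lists were chosen with earlier results of these data known. As in the methods, a gene had to be found in 2 or more cells, and clusters under 1% of cells were left out. No doublet caller was run. The 4 libraries were clustered jointly with Seurat 5.3.0 (2000 variable genes without the members, of which Tcf7, Klf3 and Myb would have been among them, 15 principal components, 20 neighbours, resolution 0.8). This replaced clustering of each library, after that had left Bcl3-/- 1 without a memory-gene cluster. A cluster took the name of a marker list when at least 3 of its markers were 2-fold above the other cells and found in 10% of its cells, and at least 1 was among its 10 leading genes.

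Counts were summed per library and tested with edgeR 4.0.16 in R 4.3.3 (TMM, filterByExpr, quasi-likelihood test, Benjamini-Hochberg adjustment over all genes tested, calls at 0.05). DESeq2 1.42.0 was an alternative. The edgeR and DESeq2 fits between genotypes were tested on simulated data. The interaction fit, the clustering and the other steps were not. Same-numbered WT and Bcl3-/- libraries come from the same animal, and their deviations correlated at 0.291 over all cells (6863 genes) and 0.492 over T cells (6745 genes), as Pearson r of log2 differences across genes. The fit without the block is given first because the study names none. The block leaves 1 residual degree of freedom per gene, so its spread is mostly that shared over genes. With 2 libraries per genotype, p-values rest on the spread between 2 animals from separate experiments.

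For shares of cells, 1000 UMIs were drawn at random from each cell, leaving out 25, 15, 223 and 19 cells of WT 1, Bcl3-/- 1, WT 2 and Bcl3-/- 2. Intervals are exact Clopper-Pearson at 95%. They cover counting error only. Where 0 cells had a UMI, 3 counts over the cells is the limit. Likeness between genes is the Pearson r of log2(CPM + 10). The genes named are the 10 members, from each list every gene called over all cells or T cells and otherwise the 3 with the lowest p in T cells, genes called with the block, and for each member the 3 most alike genes. Of the listed genes, 1 is not reported here. The genes named only from the block were added after their values were seen, and so were the letters of the KLF box, chosen after the promoters had been read. Alternatives were other scalings, filters, cell filters, clusterings, thinning, and each library left out in turn.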

Additional observations from a re-analysis of the deposited data

Results flagged for a closer look

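The Bcl3-/- to WT difference of Tcf7 was lower in the memory-gene cluster than in the no-list clusters by -0.59 on the log2 scale (SE 0.13, adjusted p 0.0445 in edgeR, library as a block), and it was lower in both chimeras. The call was lost without Bcl3-/- 1 and without WT 2, and under clustering at resolutions of 0.4 and 1.2.

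Satb1 was higher in both Bcl3-/- libraries than in the WT library of the same chimera within the memory-gene cluster, by 0.3 and 0.13 on the log2 scale. In the terminal effector-gene cluster it was lower in both, at -0.26 and -0.07, and in the no-list clusters again higher in both, at 0.01 and 0.28. These differences between the states were not tested.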

How the results depend on the processing

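All alternatives that cluster each library separately, leave out cells with Cd4 and no Cd8 UMIs, or leave out cell-cycle or shallow clusters were chosen after seeing the data. Among counts that answer a comparison, 108 values under an alternative were within 1.5 times of the one reported and 50 were not. Among values of single genes, 703 kept direction and side of the threshold, 70 changed sign, 25 moved beyond 1 SD, and 11 gained and 4 lost a call. In tests between genotypes, clustering each library separately kept the members among the variable genes. The causes were not tested. At the depth of these libraries Bcl6 had 7 to 13 UMIs in the T cells of a library, Bach2 70 to 115 and Myb 57 to 98.

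Replicate block. With the chimera as a block, genes called rose from 42 to 1116 over all cells (3 members in place of 0), from 25 to 1191 in T cells (3 in place of 0), from 33 to 182 in the memory-gene cluster, from 23 to 99 in the terminal effector-gene cluster and from 27 to 513 in the no-list clusters (2 in place of 0). Under the block Bach2 in T cells was at -0.0001, Myb in the memory-gene cluster at -0.0709 and Lef1 in the terminal effector-gene cluster at -0.0001, on the other side of 0 from the fit without it, and the block changed no other call of a member. With the block and without the 4 cell-cycle clusters, 707 genes and 2 members were called in T cells (Foxp1 and Klf3, but not Klf2), and Bach2 was at -0.0787.

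Genes called over all cells numbered 27 with thinned and equal cells, 195 with DESeq2 and 80 with library totals only. In T cells they were 43, 165 and 44 under the same settings and 8 without a filter on low counts. In the memory-gene cluster there were 135 without the filter. In the terminal effector-gene cluster there were 0 without the filter, 89 at resolution 0.4, 48 at resolution 1.2, and 52 both with the members among the variable genes and with each library clustered separately. In the no-list clusters there were 83 with DESeq2 and 8 without the filter. For the interaction, 5 genes and 0 members were called at resolution 0.4 (Tcf7 at -0.68) and 1 gene and 0 members at resolution 1.2 (Tcf7 at -0.45). The number of members higher in the memory-gene than the no-list clusters in all 4 libraries was 8, and 5 with 30 principal components, where Foxp1 (mean log2 ratio 0.11, lowest library -0.33), Klf3 (0.08, lowest -0.48) and Satb1 (0.14, lowest -0.02) were no longer higher in every library.

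Leaving out a library leaves 1 in its genotype, which is assumed to vary like the other genotype. Leaving out each library in turn gave 40 to 228 genes over all cells (40 without WT 2, 228 without WT 1), 34 to 167 in T cells, 0 to 89 in the memory-gene cluster, 0 to 0 in the terminal effector-gene cluster, 102 to 441 in the no-list clusters (0 to 1 members, Tcf7 without WT 1) and 9 to 22 for the interaction (0 to 1 members). No other call of a member changed in these fits. The interaction of Tcf7 lost its call without Bcl3-/- 1 and without WT 2. Log2 fold changes that changed sign spanned, over all cells, -0.13 to 0.32 for Tcf7, -0.0341 to 0.20 for Lef1, -0.12 to 0.22 for Foxo1, -0.19 to 0.35 for Bach2, -0.50 to 0.59 for Bcl6 and -0.16 to 0.65 for Myb. In T cells they spanned -0.12 to 0.32 for Tcf7, -0.0343 to 0.20 for Lef1, -0.10 to 0.24 for Foxo1, -0.34 to 0.30 for Bach2, -0.19 to 0.43 for Bcl6, -0.0005 to 0.20 for Satb1 and -0.23 to 0.47 for Myb. In the memory-gene cluster they spanned -0.34 to 0.16 for Tcf7, -0.28 to 0.23 for Foxo1, -0.11 to 0.57 for Foxp1, -0.0266 to 0.19 for Klf2 and -1.15 to 0.62 for Myb, and in the terminal effector-gene cluster -0.12 to 0.11 for Lef1. In the no-list clusters they spanned -0.0631 to 0.24 for Lef1, -0.13 to 0.21 for Foxo1, -0.0297 to 0.62 for Foxp1, -0.39 to 0.42 for Bach2 and -0.0462 to 0.79 for Myb. For the interaction they spanned -0.11 to 0.0692 for Lef1, -0.18 to 0.0153 for Foxo1, -0.24 to 0.16 for Foxp1, -0.29 to 0.0013 for Klf3, -0.0781 to 0.48 for Bach2, -0.10 to 0.29 for Satb1 and -1.16 to 0.33 for Myb.

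Other changes of sign are given by group. Bcl6 over all cells was 0.0174 with at least 800 genes per cell and 0.17 without the 5% of cells with the most UMIs. In T cells, Bach2 was -0.52 and Myb -0.17 with thinned and equal cells, and Bach2 -0.0041 with each library clustered separately and -0.0634 without the cell-cycle clusters. In the memory-gene cluster, Tcf7 was 0.0415 with each library clustered separately and 0.0758 at resolution 1.2. Foxo1 there was 0.20 and 0.0391 under those, 0.10 with the members among the variable genes and 0.0146 without Cd4 cells, and Myb was -0.0354 with DESeq2, -0.12 with the members among the variable genes, -0.0042 without the filter and -0.0745 at resolution 0.4. In the terminal effector-gene cluster, Lef1 was -0.0064 with DESeq2 and -0.0242 with the members among the variable genes, and Foxo1 -0.0824 with each library clustered separately. In the no-list clusters, Bach2 was -0.0016 at resolution 0.4. For the interaction, Lef1 was 0.05 at resolution 1.2, and Foxo1 0.0365 and Bach2 -0.13 with the members among the variable genes.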
